A study of Mus musculus with 2 samples.

Results

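Myt1, Myt1l and St18 are the 3 genes of the myelin transcription factor 1 family, and they were followed here on 2 mouse gene expression arrays through every probe that the array files name after them. That gave 5 probes among 55674 that were not controls, namely 1 for Myt1, 3 for Myt1l and 1 for St18, and 3 gene names among 36493. Each sample consisted of neural stem and progenitor cells (NSPCs) that came from mouse embryonic stem cells by way of embryoid bodies and were grown as tertiary neurospheres. The miR-153_OE array held RNA of NSPCs that overexpressed the microRNA miR-153, and the control_OE array held RNA of NSPCs labelled as the control for overexpression. Both were at passage 2, on day 18 after embryoid bodies, and the construct that carried miR-153 is not given in the sources used here. With 1 array in each group there was no replicate, so no difference has a test or a spread between cultures. The family was chosen by its log2 differences between these arrays and its detection on them, which were already known, so its values are a description.

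The family encodes transcription factors with CCHHC zinc fingers, a type of finger that binds a short AAGTT core in DNA. Myt1l drives mouse fibroblasts towards neurons together with other neuronal factors, among them Pou3f2. In neural tissue the proteins are known mainly as repressors that are switched on as cells leave the progenitor state, and they turn down Notch pathway and other genes that do not belong to neurons. St18, also called Myt3, is known from neurons and from pancreatic islets.

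The microRNA that set the groups apart is read from a hairpin with an arm on either side, and the labels do not say which arm was raised. Both mature sequences, from RefSeq on GRCm38.p6, are shown with the seed (bases 2 to 8) in capitals because they define the treatment.
mmu-miR-153-3p: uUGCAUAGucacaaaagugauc
mmu-miR-153-5p: gUCAUUUUugugacguugcagcu
The hairpin lies on chromosome 12, as does Myt1l, with the 3p arm at chr12:117250860-117250881.

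Myt1l was the member with the most probes, and their sequences and positions show which part of the transcript each one reads. Of its 3 probes of 60 bases, the pair inside the reading frame is shown, 5′ to 3′. Capitals mark a stop codon that closes the only open frame of a probe. Positions of probes are on mm9 as the files give them, on the plus strand.
A_55_P2056112: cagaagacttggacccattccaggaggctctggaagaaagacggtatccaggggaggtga
A_55_P2056120: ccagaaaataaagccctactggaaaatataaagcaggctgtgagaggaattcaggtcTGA
The probe A_55_P2056120, at chr12:30605287-30605346, had 1 open reading frame, which ended in that TGA, its last 3 bases. The probe A_55_P2056112, at chr12:30539099-30539158, lay 980 bases earlier in the transcript but 66188 bases earlier in the genome, so introns separate them. All 3 frames of A_55_P2056112 counted as open, so its place in the coding part rests on its position and not on its sequence. The third probe, A_55_P2001793 at chr12:30605595-30605654, began 308 bases further on in both genome and transcript, which places it on the same exon, with 248 bases between the end of the stop codon and its start. It had stop codons in each of the 3 frames.

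All 3 genes had more signal on the miR-153_OE array. Myt1l and Myt1 were each about 4-fold higher, at 4.12-fold on the brightest Myt1l probe and 3.90-fold for Myt1. St18 was well above background (here also called detected) on the miR-153_OE array alone, at least 15.3-fold higher there. The 4 probes of Myt1 and Myt1l were each past 2-fold higher, as were 9.02% of the 27439 probes well above background on both arrays. By gene the share was 9.21% of 20473, and 19.2% of the 1930 genes well above background on the miR-153_OE array only had a bound of 2-fold or more, as St18 did. Values are background-subtracted intensities, each with the error that the scanner software gives for that single spot. Differences are log2 of the miR-153_OE signal minus log2 of the control_OE signal, after each was divided by the 75th percentile of its array.

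Myt1 had 231 ± 23.4 intensity units on the miR-153_OE array, against 46.8 ± 6.40 on the control_OE array. Before background subtraction the spot stood 6.73 times above its local background on the miR-153_OE array and 2.07 times above it on the control_OE array. The Myt1 spot was therefore dim on the control_OE array, although well above background on both by the scanner software's call. Its log2 difference was 1.96, with an error of 0.25 from the scanner's errors alone. The probe lies at chr2:181562013-181562072 on mm9, near the end of the transcript. It was 18.3% G and C, lower than nearly any other probe, since only 0.0898% of the 55681 probes with a sequence had less, against a median of 43.3%. There was no second Myt1 probe to set beside it.

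Myt1l was measured by 3 probes, each well above background on both arrays. On A_55_P2056112 it had 126 ± 13.5 intensity units on the miR-153_OE array, against 39.3 ± 6.60 on the control_OE array, a log2 difference of 1.34 ± 0.29. On A_55_P2056120 it had 417 ± 41.9 units on the miR-153_OE array, against 94.1 ± 10.8 on the control_OE array, a log2 difference of 1.81 ± 0.22. On A_55_P2001793 it had 1819 ± 182 units on the miR-153_OE array, against 349.6 ± 35.5 on the control_OE array, a log2 difference of 2.04 ± 0.21. The miR-153_OE signal was the higher on each of the 3 probes. Their mean difference was 1.73 ± 0.36 (SD over 3 probes, which share their RNA and are not replicates), and the values lay within a range of 0.70.

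The order of the 3 differences followed the order of the probes along the Myt1l transcript, lowest in the coding part and highest beyond the stop codon, with steps of 0.47 and 0.23. It was also the order of their signals, from dimmest to brightest on both arrays, so position and brightness cannot be told apart. The probe with the lowest difference, A_55_P2056112, stood 3.67 times above its local background on the miR-153_OE array and 1.92 times on the control_OE array. Over 3442 genes with 2 or more probes, the probes of a gene had a pooled SD of 0.46 and a median SD of 0.24 for the difference, and the SD of 0.36 for Myt1l lay between these values. An unnamed probe between them in the genome, A_52_P639028, was detected on neither array.

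St18 had 414 ± 41.6 intensity units on the miR-153_OE array, where its spot stood 13.0 times above local background. On the control_OE array the raw spot signal of 41.4 was 1.06 times a local background of 39, and the file holds a substitute value of 4.36 in place of a measured signal. St18 was thus not well above background on the control_OE array, and only a bound can be given. The bound sets its level of -0.41 on the miR-153_OE array, in log2 relative to the 75th percentile, against -4.34, the dimmest level that the control_OE array detected. The probe lies at chr1:6850155-6850214 on mm9, and no second St18 probe was on the array.

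**Figure D1:**
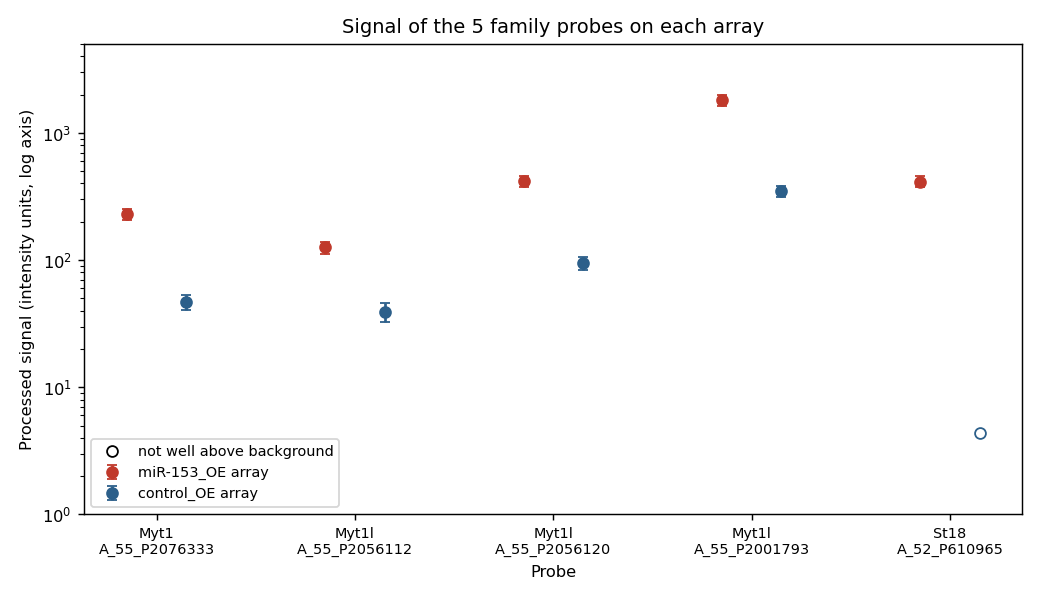
Processed signal of the 5 probes in intensity units on a log axis, with the miR-153_OE array in red left of the control_OE array in blue. Bars are the scanner software's error of a single spot, and the open point, drawn without a bar, is the St18 value of 4.36 that was not well above background. The red points sit above the blue ones on each probe, from 126 against 39.3 units to 1819 against 349.6 units for Myt1l.

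These sizes can be read against the whole array. In the other direction 11.1% of the genes were past 2-fold lower and 11.5% of the probes, and the median difference of genes was -0.11. A larger difference than that of Myt1 was seen for 321 genes, and 266 exceeded that of Myt1l. Among genes detected on the miR-153_OE array only, 3 had a larger bound than St18. All 3 Myt1l probes were past 2-fold higher, and 2.46% of 1299 genes with 3 or more probes on both arrays had every probe so. Because the family was chosen for its differences, nothing is drawn from these shares. Repeat spots of a probe had a median SD of 0.073 for the difference, over 258 probes.

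**Figure D2:**
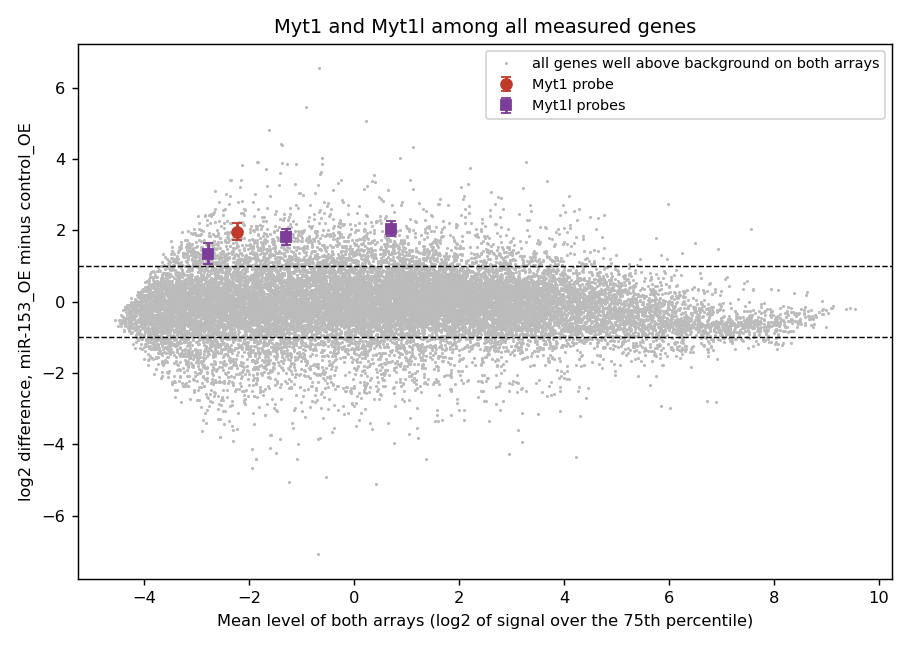
Log2 difference against mean log2 level of both arrays for all genes well above background on both (grey), with the Myt1 probe in red and the 3 Myt1l probes in purple. Bars are the error from the scanner software, and dashed lines mark 2-fold. The family points lie between 1.34 and 2.04, above the upper line.

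Other processing moved some of these differences. With normexp correction of the raw spot signals, which also adds a constant of 50 before the log so that both choices change together, Myt1 differed by 1.14 and the bound of St18 was 2.53 on the log2 scale. Under the same correction the Myt1l probes gave 0.47, 1.17 and 1.83 in transcript order. Thus 4 of the 5 probes stayed past 2-fold, St18 by its bound, and A_55_P2056112 did not. Genes past 2-fold higher numbered 1199 with normexp, against 1886 with the 75th percentile. Scaling on the spike-in RNA added 0.23 to every difference, and the genes' median became 0.12. Past 2-fold there were then 2783 higher and 1564 lower, so 64.0% of such genes were higher, against 45.4% with the 75th percentile. The sign of the family probes (for St18, of the bound) did not turn under any of the 7 ways of processing plotted. These ways are not 7 separate checks. The series table and the keeping of outlier spots gave the same differences by construction, and spike-in scaling added a constant.

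**Figure D3:**
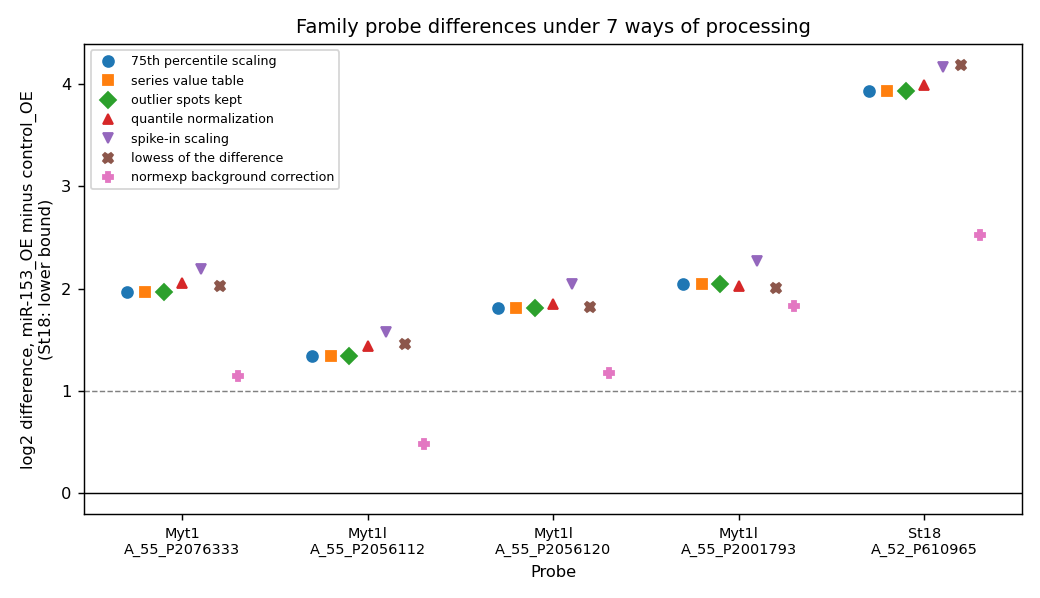
Log2 difference of each probe (for St18 the lower bound) under 7 ways of processing, with the dashed line at 2-fold and the solid line at 0. The normexp values, in pink, are the lowest of each probe, and that of A_55_P2056112 lies at 0.47, under the dashed line.

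Position was examined next, because the rule did not use it. The nearest named genes with probes on the array were taken for each member, a choice made after their values were seen. Before Myt1 lay Oprl1, an opioid-related receptor gene, 106 kb away and at 2.43, and its second probe, detected on the miR-153_OE array only, was at least 3.90-fold higher there. After Myt1 lay Pcmtd2 at 0.99 and Polr3k, of RNA polymerase III, at 0.02, while the 3 probes of Rgs19, a regulator of G protein signalling, ranged from -0.68 to -0.31. After Myt1l lay Pxdn, a peroxidase gene of the extracellular matrix, at -1.05 and -0.44. Lkaaear1 before Myt1 and Alkal1 before St18 were detected on neither array, and the distant Sntg2 was at least 1.75-fold higher on the miR-153_OE array. The neighbour after St18 was Pcmtd1, whose probes gave -0.75 and 0.18. These neighbours thus went both ways, with Oprl1 past 2-fold higher and a Pxdn probe past 2-fold lower.

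Promoters were searched for the family's own AAGTT core, since the members were higher together. RefSeq held entries for Myt1 (3 starts) and Myt1l (5 starts), and the search covered the 250 bases before each start on both strands (AAGTT or AACTT). A match was present before each of the 3 Myt1 starts and before 2 of the 5 Myt1l starts. Among all 32851 promoter entries, 35.3% held a match in a window of the same length. By gene, 38.9% of 27025 had a match before at least 1 start. In the lists described below, 1 of 5 co-repressors with an entry had one, 2 of 7 neuronal fate factors and 1 of 6 candidate targets. Lists this short allow no reading of these counts. The Myt1 entry with its match nearest the start, 10 bases before it, and the Myt1l entry with 2 matches are shown, plus strand, GRCm38.p6, with matches in capitals.
Myt1, chr2:181763082-181763331: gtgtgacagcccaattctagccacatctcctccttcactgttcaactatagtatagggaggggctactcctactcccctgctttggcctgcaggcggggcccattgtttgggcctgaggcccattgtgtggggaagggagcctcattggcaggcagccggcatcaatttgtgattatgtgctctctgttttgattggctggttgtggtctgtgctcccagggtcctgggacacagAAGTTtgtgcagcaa
Myt1l, chr12:29534972-29535221: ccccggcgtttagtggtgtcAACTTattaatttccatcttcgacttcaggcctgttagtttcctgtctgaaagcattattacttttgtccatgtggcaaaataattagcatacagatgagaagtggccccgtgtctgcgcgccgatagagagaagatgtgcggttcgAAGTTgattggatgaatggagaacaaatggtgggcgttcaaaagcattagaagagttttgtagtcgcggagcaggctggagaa
An E-box of the letters CAGCTG was found before 1 of the 5 Myt1l starts and none of the Myt1 starts, against 13.0% of all entries. A match describes the letters and is not a binding site, and with motifs this short many promoters hold one.

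Co-repressors that the family works through lay within 2-fold on their brightest probes. The list held Sin3a and Sin3b, the scaffold proteins of the Sin3 complex, the histone deacetylases Hdac1 and Hdac2, and Rcor1 and Kdm1a of the CoREST complex. All 6 were well above background on both arrays, 0 were past 2-fold either way, against 9.21% higher and 11.1% lower of all genes, which for a list of 6 is not a result about it. Their median was -0.01, against -0.11 over all genes. Under spike-in scaling it was 0.22, against 0.12 over all genes. Kdm1a, a histone demethylase, was at 0.52 and Rcor1 at -0.75 on both of its probes. Hdac2 was at 0.12, with an SD of 0.084 over 10 repeat spots, and Sin3a at -0.26. Sin3b (-0.0034) and Hdac1 (-0.02) turned positive under normexp, spike-in, quantile and lowess processing. The second probe of Sin3b, A_55_P2072543, went against its brightest one, since it was well above background on the miR-153_OE array only and at least 3.57-fold higher there.

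Neuronal fate factors that act beside the family were uneven. Of 10 on the list, 5 were well above background on both arrays, 1 of them past 2-fold higher and 0 lower, against 9.21% higher and 11.1% lower of all genes, with a median of 0.29. The 1 higher was Insm1, a zinc finger repressor of newborn neurons, with 9276 intensity units on the miR-153_OE array, against 550.4 on the control_OE array, a difference of 3.74. Pou3f2, a POU factor that is a partner of Myt1l in fibroblast conversion, had 1036 units on the miR-153_OE array, against 669 on the control_OE array, a difference of 0.29, which was not past 2-fold. Neurog2, a proneural factor, was well above background on the miR-153_OE array only, at least 1.49-fold higher, and Pou3f4 likewise, with a bound of 1.40-fold. Neurog3 was at 0.67, or 0.10 with normexp. Neurog1, Neurod1 and Neurod4 were detected on neither array. Rest, the repressor of neuronal genes outside neurons, was at -0.62, and its second probe gave -0.88.

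Candidate targets of the family went both ways. Most were Notch and progenitor genes that the proteins are thought to turn down, such as Hes1 in mouse neural progenitors. All 10 were well above background on both arrays, 3 were past 2-fold higher and 0 lower, against 9.21% higher and 11.1% lower of all genes, and the median was 0.53. Hes5 and Id3 were among the 3 higher. Olig1 is also an oligodendrocyte marker and Sox2 a progenitor marker, so these lists share genes. Hes5, a Notch target, had 34499 units on the miR-153_OE array, against 5050.2 on the control_OE array, a difference of 2.44. Id3, an inhibitor of proneural factors, was at 1.02, close to the 2-fold line. Hes1, a repressor of proneural genes, had 507 units on the miR-153_OE array, against 709.6 on the control_OE array, a difference of -0.82. The probes of the receptor gene Notch1 disagreed, at -0.74 on the brighter and 0.56 on the dimmer one, while its ligand gene Dll1 was at 0.93. Id1 stood at 0.77, Sox2 at 0.29 and Yap1, of the Hippo pathway, at -0.25. Olig1 was at -0.38, and turned to 0.05 with quantile normalization and 0.03 with lowess. Under spike-in scaling 5 of the 10 were past 2-fold higher. The 0.23 added to every difference carried Id1 and Dll1 over the line. Over all 20473 genes the number past 2-fold higher rose from 1886 to 2783 with the same constant, so the larger count is not particular to this list.

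Because each array holds the RNA of a whole culture, more cells of a type and more RNA per cell cannot be told apart. The marker counts stand against 9.21% higher and 11.1% lower of all genes. Neuron markers were all 8 well above background on both arrays, 4 were past 2-fold higher and 0 lower, and their summed level, in units of the 75th percentile, was 131 on the miR-153_OE array and 49.4 on the control_OE array. Doublecortin (Dcx), of migrating young neurons, was at 2.97, whereas Rbfox3 (0.75) and Syp (0.04), of mature neurons, were not past 2-fold. Oligodendrocyte lineage markers had 5 of 10 higher and 1 lower, and a summed level of 126 on the miR-153_OE array and 88.9 on the control_OE array. Without Olig1, the largest gene of the list, that sum was 78.8 on the miR-153_OE array and 27.4 on the control_OE array. The lineage factor Sox10 was at 1.54. The precursor marker Cspg4 was 4.01-fold lower, while Pdgfra, also a precursor marker, was at 0.71 and not past 2-fold. Progenitor markers, by which the label was checked, were present on both arrays, with all 8 well above background, 2 higher and 0 lower, and a summed level of 654 on the miR-153_OE array and 705 on the control_OE array. Over all 8 genes that sum has no settled direction, since its log2 ratio was -0.11, or 0.12 under spike-in scaling. The median of the list was 0.17. Fabp7 (0.19) and Vim (-0.72) were the brightest of the list. Without Fabp7, the largest, the sum was lower on the miR-153_OE array, at 238, than on the control_OE array, at 340. Vim was the brightest gene left in that sum, and its difference became -0.06 under quantile and lowess processing. The 2 markers past 2-fold higher were Prom1 (1.74) and Sox1 (1.15, and 0.40 on its second probe). The part of these cell types in the family's differences was not tested.

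Astrocyte markers had 1 of 5 past 2-fold higher, S100b at 1.44, and a summed level of 46.0 on the miR-153_OE array and 31.0 on the control_OE array, or 17.7 on the miR-153_OE array and 16.7 on the control_OE array without Aldh1l1. Pancreatic endocrine markers were included because St18 and Myt1 are also known from islets. Of 8, 3 were well above background on both arrays, 0 of them past 2-fold, and the summed level of the list was 8.74 on the miR-153_OE array and 4.77 on the control_OE array, or 0.994 on the miR-153_OE array and 0.874 on the control_OE array without the largest gene. The insulin gene Ins1 and the islet factor Pax4 were detected on neither array, and Ins2 was at 0.51. The somatostatin gene Sst was well above background on the miR-153_OE array only, at least 3.21-fold higher there, while the hormone genes Gcg and Iapp were so on the control_OE array only, with bounds of 6.04-fold and 1.89-fold lower on the miR-153_OE array. Endothelial and microglial markers each had 2 of 4 well above background on both arrays and 0 past 2-fold, with Cdh5, Tek, Aif1 and Cx3cr1 detected on neither. Their summed levels were 10.5 on the miR-153_OE array and 16.7 on the control_OE array for endothelial markers, and 40.0 on the miR-153_OE array and 24.7 on the control_OE array for microglial ones. The microglial sum was nearly all 1 probe of Itgam, at 0.73, whose other probes gave -0.64 and -0.75, and without Itgam it was 1.38 on the miR-153_OE array and 1.47 on the control_OE array. The endothelial sum was nearly all Kdr, at -0.68. Of the 4 pluripotency markers, Esrrb was at -2.48 and Nanog at -0.11 (0.12 under spike-in scaling, and 0.76 on its second probe), with a summed level of 1.61 on the miR-153_OE array and 2.87 on the control_OE array. The sums without the largest gene were added after seeing the data.

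**Figure D4:**
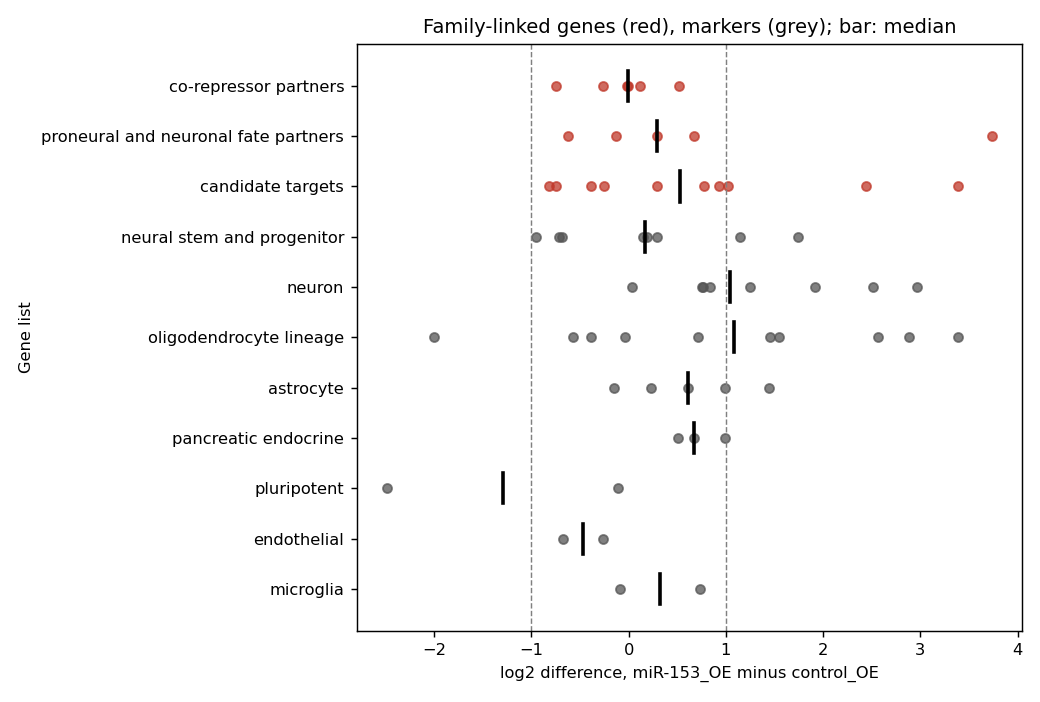
Log2 differences of genes linked to the family (red) and of cell type markers (grey) that were well above background on both arrays, with a black bar at each list's median and dashed lines at 2-fold. The co-repressors lie between -0.75 and 0.52, inside the lines, while 3 candidate targets and 4 neuron markers lie beyond the upper one.

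The genes with signals most like those of each member on the 2 arrays were found as the nearest by distance between log2 levels. Levels of different probes do not compare as amounts of RNA, so the likeness is one of signal only, over 2 samples. For Myt1 they were Foxf2, Col11a2, Zfp677, Cartpt and Plcxd3, at distances of 0.097 to 0.11 among 13098 genes, with differences of 1.82 to 2.10. For Myt1l they were Cfap100, a ciliary protein gene, Gdap1, Plcg2, Gabrb2, a GABA receptor subunit gene, and Drp2, at 0.041 to 0.17, with differences of 1.84 to 2.06. For St18 the candidates were the 807 named genes well above background on the miR-153_OE array only. Among its 5 nearest were Sly and Gm20736, of a family with many near-identical copies that a probe may not tell apart, and Pdzk1ip1 and Slco1a5. These lay further off, at 0.51 to 1.35, with bounds of 5.98-fold to 11.6-fold. On the control_OE array neither St18 nor these genes were well above background, so that part of their distance rests on undetected levels.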

How the data were processed

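Both samples were measured on 1-colour Agilent arrays of the same slide, from 50 ng of RNA per the labels' protocols. The intensity values used were deposited by the authors as scanner files. The submitters' processing notes name Feature Extraction 10.7.3.1 as the software. Each spot has, per the file headers, a background-subtracted signal, an error and other flags for background, saturation and outliers.

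The 75th percentile over 59305 non-control spots was 549 on the miR-153_OE array and 435 on the control_OE array. Of these spots, 55.6% were well above background on the miR-153_OE array and 52.5% on the control_OE array, and 0 were saturated. Spots with an outlier flag (229) were left out, repeat spots averaged, and a probe counted as well above background when every spot was. Accessions gave RefSeq names to 26296 probes. The brightest probe stood for a gene, and 2-fold was a rule of size, not a test. A bound sets the level on one array against the higher of the probe's own signal and the lowest level well above background on the other.

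Members, lists and alternatives were chosen with earlier results of these data known. Genes named were the family, the 3 linked lists, cell type markers and the 5 genes nearest each member in signal, of which some are not reported here. Alternatives were normexp (limma 3.58.1, R 4.3.3), quantile, spike-in and lowess scaling, the authors' series table, outlier spots, probe choice and filters on dim probes. The calculation of differences was tested on simulated data in which only brighter, detected probes were changed. The bound used for St18 was not part of that test. Probes as dim on the control_OE array as those of Myt1, A_55_P2056112 and A_55_P2056120 were not among those changed. The number of arrays limits the precision.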

Additional observations from a re-analysis of the deposited data

How the results depend on the processing

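Normexp background correction put Myt1 at 1.14 and the bound of St18 at 2.53, and the dimmest Myt1l probe, chosen in place of the brightest after seeing the data, gave 1.34. Otherwise Myt1 lay between 1.96 and 2.20, Myt1l between 1.73 and 2.27, and the bound of St18 between 3.93 and 4.18. The bound rests on the lowest detected level, so a dim floor limits it. Genes past 2-fold numbered 1886 higher and 2264 lower, against 1199 higher with normexp. They numbered 862 higher and 1043 lower with bright probes only, and 3607 higher and 4371 lower with no filter on dim probes, which tests fewer or more genes by construction. In the series table each signal was divided by 1 constant per array (485 for the miR-153_OE array and 381 for the control_OE array, medians 0.0614 on the miR-153_OE array and 0.0662 on the control_OE array), so it is linear, uncentred and of known direction. No paired analysis was possible because each group has 1 array, and leaving out an array leaves no comparison. Depth has no count on an array, and what signal limits is the control_OE value of St18 and the dim spots of Myt1 and of A_55_P2056112.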
